A study of Mus musculus with 12 samples.

Results

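The Cyp2c, Cyp2d, Cyp2j and Cyp4f genes are 4 subfamilies of cytochrome P450 enzymes, followed here across the livers of telomerase wild-type and knock-out mice. The members were the genes with an array probe of 1 gene symbol starting with Cyp2c, Cyp2d, Cyp2j or Cyp4f and a digit, a rule that uses no measured value. This gave 38 of the 19938 genes named on the array: 13 Cyp2c, 10 Cyp2d, 6 Cyp2j and 9 Cyp4f genes. Each of them had a single such probe. A further probe carrying the names Cyp2c67, Cyp2c68, Cyp2c69 and Cyp2c40 together was left out.

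Cytochrome P450 enzymes are haem proteins that put 1 oxygen atom of molecular oxygen into a substrate, with electrons passed on by P450 oxidoreductase and, for some reactions, cytochrome b5. Cyp2c and Cyp2j enzymes turn arachidonic and linoleic acid into epoxides and also act on drugs and steroids, Cyp2d enzymes act on drugs and steroids, and Cyp4f enzymes hydroxylate the far end of leukotriene B4, vitamin E and fatty acid chains. In rodents the subfamilies have grown by tandem duplication, and liver is a main site of their use. Cyp2c transcription in hepatocytes depends on nuclear receptors such as HNF4A, CAR (gene Nr1i3) and PXR (gene Nr1i2), and several Cyp2c and Cyp2d genes differ between the sexes through growth hormone.

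Total RNA of whole liver from 12 male C57BL/6J mice was hybridized to 12 one-colour arrays, 1 animal per array. There were 3 mTERT KO and 3 mTR KO mice, both first generation (G1), with 3 mTERT WT and 3 mTR WT mice beside them. mTERT is the reverse transcriptase and mTR the RNA template of telomerase, the enzyme that extends chromosome ends. The mice were matched for age and sex, with no age given in the labels, and WT and KO mice of a set were littermates. The number in each sample's title, 1, 2 or 3, was read as that set, which gives 6 litters of 1 WT and 1 KO mouse, and it is called the title number here. No treatment was given, and the labels do not say how the deletions were made. First-generation knock-outs descend from parents with telomerase, which limits them as a model of short telomeres.

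Values are log2 intensities as deposited, and a difference of 1 is a 2-fold change. Levels of different genes are not compared with each other, because probes differ in how strongly they bind. The Tert probe read 3.95, 4.07 and 4.15 in mTERT KO and 4.13, 4.78 and 4.83 in mTERT WT, which overlap at the edge, and the Terc probe lay between 3.87 and 4.48 on all 12 arrays, so that it checks nothing. Olfactory receptor genes, of which the array holds 1027, set the background: the 95th percentile of their values averaged 4.34 over arrays (4.21 to 4.49). All 9 hepatocyte marker genes measured were above it, with array means of 12.68 to 12.89. Transcripts of other tissues were present on some arrays. Averaged over 11 acinar genes of the pancreas, mTR KO 1 read 11.50, mTERT KO 1 10.06, mTERT WT 2 9.13, mTERT WT 1 7.59 and mTR WT 2 7.05, while the remaining 7 arrays lay between 3.83 and 4.02. Averaged over 12 muscle genes, mTERT WT 1 read 6.91 and mTERT WT 3 read 6.54, while the remaining 10 lay between 3.92 and 4.57. In whole liver, fewer cells of a type and less RNA per cell cannot be told apart.

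Most Cyp2c and Cyp2d genes were detected in every group, while the Cyp2j and Cyp4f subfamilies were each split into detected and undetected genes. Group means lay above background in all 4 groups for 12 of 13 Cyp2c genes, 9 of 10 Cyp2d genes, 3 of 6 Cyp2j genes and 5 of 9 Cyp4f genes. The other 9 genes were below it in all 4 groups: Cyp2c65, Cyp2d12, Cyp2j11, Cyp2j12, Cyp2j13, Cyp4f18, Cyp4f37, Cyp4f39 and Cyp4f41-ps. Cyp4f18 is the leukotriene B4 hydroxylase of neutrophils and other myeloid cells, and 10 of 11 neutrophil and myeloid genes were also below background in all 4 groups, the exception being Lyz2, a lysozyme that macrophages share. All 10 Kupffer cell and macrophage genes were above it. Cyp4f39 makes the very long omega-hydroxylated fatty acids of the skin barrier. A filter on dim probes, set at the 30th percentile of all probe means (3.90), kept 34 of the 38 genes for testing and removed Cyp2j12, Cyp2j13, Cyp4f18 and Cyp4f41-ps.

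**Figure D1:**
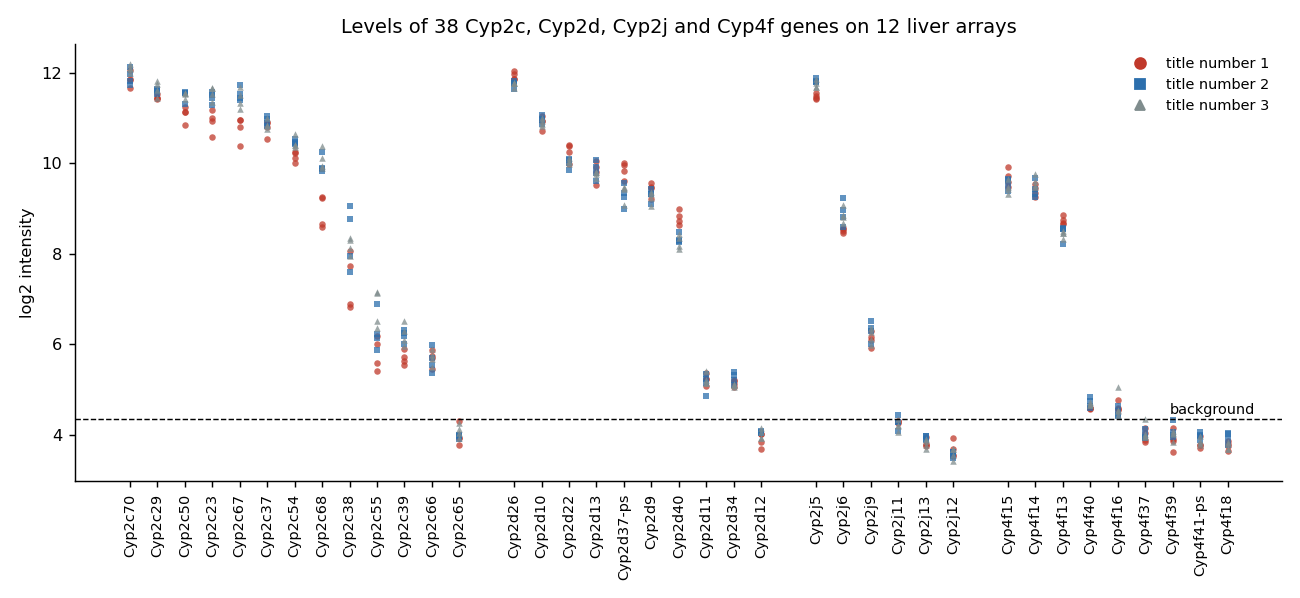
Log2 intensity (y axis) of each of the 38 genes (x axis, grouped by subfamily and sorted by mean for display) on the 12 arrays, with 1 point per array, coloured by title number, and a dashed line at the background level of 4.34. The group means of 29 of the 38 genes sit above the line in all 4 groups, and the spread of the 12 points is widest for Cyp2c38, from 6.83 to 9.05.

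By subfamily, with the 3 arrays of each group given from here on in the order of title number 1, 2 and 3, the Cyp2c genes varied most from array to array. Cyp2c70, which makes the muricholic acids of mouse bile, read 12.06, 11.97 and 12.11 in mTERT WT, 11.87, 12.13 and 12.10 in mTERT KO, 11.85, 11.72 and 12.0003 in mTR WT, and 11.67, 11.81 and 12.20 in mTR KO. The groups overlapped throughout. Cyp2c29, an epoxygenase of arachidonic acid, read 11.41, 11.60 and 11.83 in mTERT WT, 11.44, 11.65 and 11.75 in mTERT KO, 11.53, 11.53 and 11.46 in mTR WT, and 11.45, 11.62 and 11.62 in mTR KO. Cyp2c50, an epoxygenase of arachidonic and linoleic acid, read 10.86, 11.57 and 11.52 in mTERT WT, 11.12, 11.32 and 11.56 in mTERT KO, 11.24, 11.57 and 11.43 in mTR WT, and 11.13, 11.56 and 11.56 in mTR KO. For Cyp2c50 the array numbered 1 was the lowest of its group in all 4 groups. The range over the 12 arrays was 2.22 log2 units for Cyp2c38, 1.80 for Cyp2c68 and 1.76 for Cyp2c55, and between 0.41 and 1.34 for the other 10 Cyp2c genes.

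Among the Cyp2d genes, Cyp2d26 read 11.86, 11.82 and 11.77 in mTERT WT, 11.97, 11.78 and 11.78 in mTERT KO, 12.05, 11.65 and 11.78 in mTR WT, and 11.86, 11.78 and 11.67 in mTR KO. Cyp2d10 read 10.93, 10.99 and 10.94 in mTERT WT, 11.06, 11.07 and 10.83 in mTERT KO, 10.93, 10.87 and 10.995 in mTR WT, and 10.72, 10.96 and 10.87 in mTR KO. Cyp2d22, the gene most often set beside human CYP2D6, read 9.98, 10.07 and 10.03 in mTERT WT, 10.40, 10.10 and 9.98 in mTERT KO, 10.39, 9.85 and 10.13 in mTR WT, and 10.25, 10.01 and 10.05 in mTR KO. No group of these 3 genes stood apart from the others, and the range over all arrays was 0.55 or less for each. Cyp2d37-ps, a pseudogene, had the widest range of the subfamily at 1.01, followed by Cyp2d40 at 0.88.

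Of the Cyp2j genes, Cyp2j5, an arachidonic acid epoxygenase of liver and kidney, read 11.45, 11.89 and 11.68 in mTERT WT, 11.48, 11.79 and 11.69 in mTERT KO, 11.55, 11.81 and 11.86 in mTR WT, and 11.42, 11.82 and 11.78 in mTR KO. Cyp2j6 read 8.57, 9.22 and 8.81 in mTERT WT, 8.46, 8.96 and 8.69 in mTERT KO, 8.49, 8.59 and 9.08 in mTR WT, and 8.54, 8.82 and 8.86 in mTR KO. Cyp2j9 read 6.16, 6.36 and 6.28 in mTERT WT, 5.92, 6.51 and 6.36 in mTERT KO, 6.30, 6.01 and 6.10 in mTR WT, and 6.08, 6.28 and 5.99 in mTR KO. In Cyp2j5 and Cyp2j6 the array numbered 1 was the lowest of its group in all 4 groups, and in Cyp2j9 in 2 of 4.

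The 3 Cyp4f genes with the highest probe means were Cyp4f15, Cyp4f14 and Cyp4f13, all of which encode leukotriene B4 hydroxylases. Cyp4f15 read 9.48, 9.64 and 9.47 in mTERT WT, 9.92, 9.63 and 9.32 in mTERT KO, 9.72, 9.40 and 9.65 in mTR WT, and 9.58, 9.53 and 9.44 in mTR KO. Cyp4f14, which also degrades vitamin E, read 9.26, 9.32 and 9.77 in mTERT WT, 9.33, 9.68 and 9.52 in mTERT KO, 9.53, 9.25 and 9.47 in mTR WT, and 9.45, 9.43 and 9.60 in mTR KO. Cyp4f13 read 8.66, 8.55 and 8.45 in mTERT WT, 8.74, 8.54 and 8.33 in mTERT KO, 8.86, 8.20 and 8.50 in mTR WT, and 8.67, 8.56 and 8.46 in mTR KO. For Cyp4f13 the array numbered 1 was the highest of its group in all 4 groups. Cyp4f16 and Cyp4f40 lay just above background, with means over 12 arrays of 4.58 and 4.65.

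The first question the design poses is whether loss of mTERT changed these genes. None of the 34 tested genes passed an adjusted p of 0.05 in mTERT KO against mTERT WT (limma, Benjamini-Hochberg over all 20197 probes tested), and 0% of all tested probes did. At an unadjusted p under 0.05 the count was 0 of 34, against 1.4% of all tested probes. No member had groups that did not overlap, against 4.33% of all probes. This fit of group means leaves out the litter, so differences between title numbers stay in its error. Its 95% interval of the difference lay within a 2-fold change in either direction for 31 of 34 genes. Cyp2c68, Cyp2c38 and Cyp2c55 were the exceptions. With the litter block the SE was 0.0864 for Cyp2c68, 0.273 for Cyp2c38 and 0.19 for Cyp2c55. With the litter as a replicate block the count called stayed at 0, and 4 genes had an unadjusted p under 0.05, against 5.13% of all probes: Cyp2c68, Cyp2c39, Cyp2d40 and Cyp4f16.

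In the Cyp2c subfamily the largest difference was that of Cyp2c38, an arachidonic acid epoxygenase, which read 6.88, 7.59 and 7.95 in mTERT WT, 6.83, 9.05 and 8.34 in mTERT KO, 8.06, 7.96 and 8.30 in mTR WT, and 7.72, 8.78 and 8.12 in mTR KO. It was 0.60 higher in mTERT KO (SE 0.476, adjusted p 1.00 with limma), and the litters gave −0.05, 1.46 and 0.39. The groups overlapped, and the litter numbered 2 carried most of the difference. Cyp2c39, known as a retinoic acid hydroxylase, was 0.28 higher (SE 0.232) and higher in 3 of 3 litters. Cyp2c68 was 0.23 higher and also higher in 3 of 3 litters (SE 0.0864, adjusted p 0.946 with limma and the litter block). Without that block its interval reached beyond a 2-fold change, so this SE does not compare with those of Cyp2c38 and Cyp2c39. The median difference was 0.13 over the 13 Cyp2c genes and 0.012 over all tested probes.

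In the other subfamilies no difference passed the test either. Cyp2d40 was 0.27 lower (SE 0.218, or 0.0944 with the litter block) and Cyp2d9, a male-biased testosterone hydroxylase, was 0.14 lower (SE 0.139), both in 3 of 3 litters. Cyp2j6 was 0.17 lower (SE 0.201) in 3 of 3 litters, and Cyp2j5 differed by −0.020 (SE 0.151). Cyp4f16 was 0.27 lower (SE 0.133, or 0.12 with the litter block), with mTERT WT 3 at 5.06 and the other 5 arrays of the line between 4.42 and 4.64. mTERT WT 3 was also 1 of the 2 arrays with muscle transcripts. Without those arrays the difference was −0.16, and it was −0.64 without the arrays with pancreas transcripts. Cyp4f15 was 0.092 higher (SE 0.146).

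**Figure D2:**
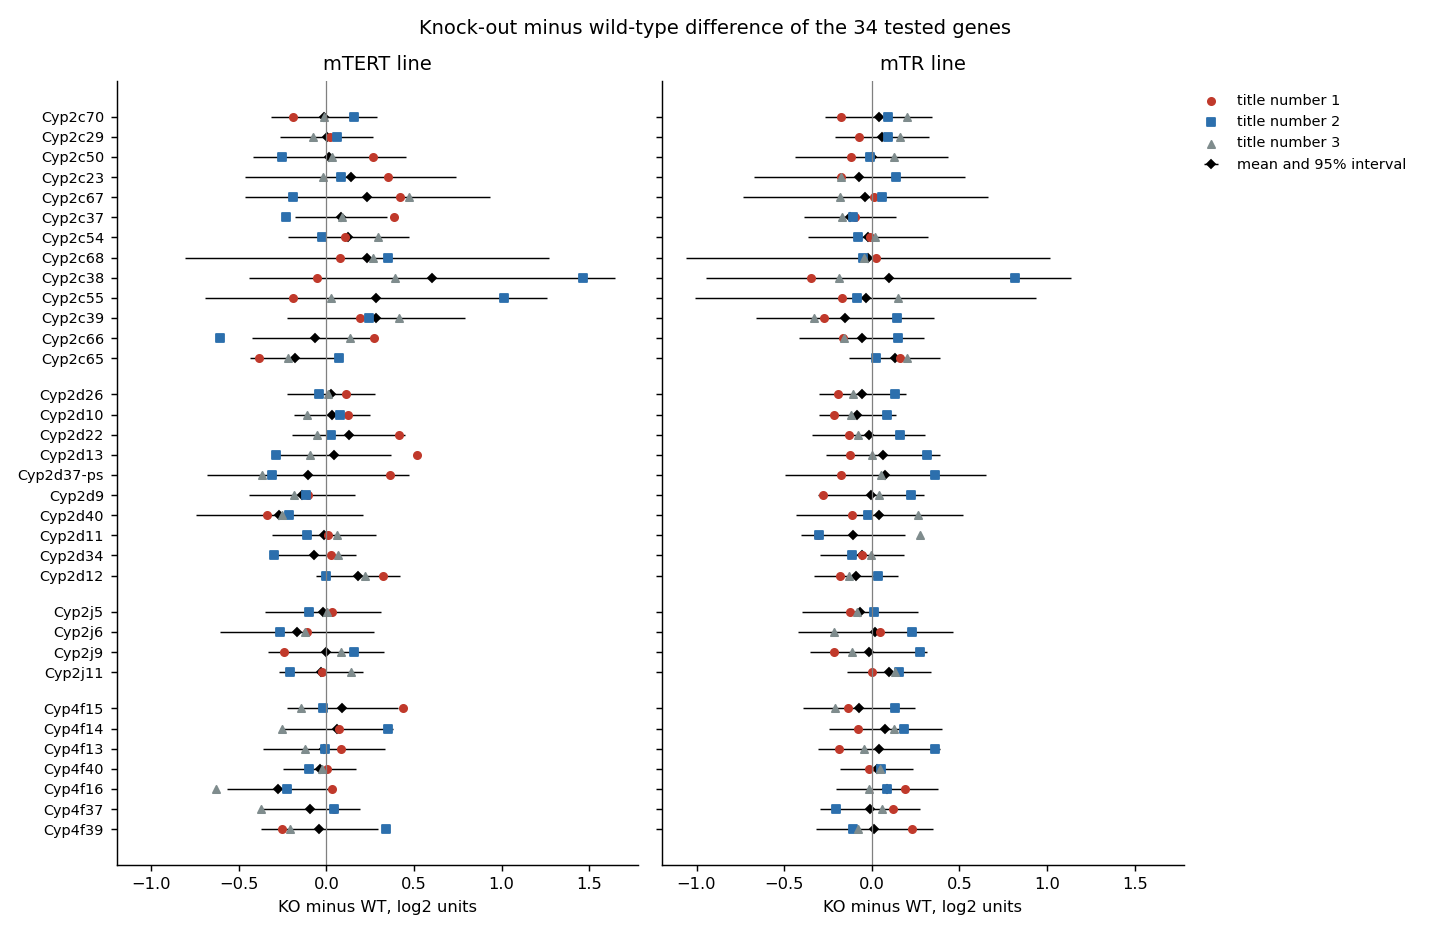
Knock-out minus wild-type difference in log2 units (x axis) for each of the 34 tested genes (y axis), with the mTERT line on the left and the mTR line on the right. Coloured points are the 3 litters, and black diamonds the mean with its 95% interval from the fit over all arrays, without the litter block. In that fit the interval spans 0 for every gene in both lines.

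Loss of mTR gave the same count. None of the 34 genes passed in mTR KO against mTR WT, where 0% of all tested probes passed, and 0 of 34 had an unadjusted p under 0.05, against 0.965% of all probes, or 4.21% with the litter block, which also gave 0 members. In the fit without the litter, a 2-fold change in either direction lay outside the interval for 31 of 34 genes, as in the mTERT line. Cyp2c37, an epoxygenase of linoleic and arachidonic acid, was the only member whose groups did not overlap, against 4.48% of all probes. It read 10.89, 10.99 and 10.999 in mTR WT and 10.79, 10.88 and 10.83 in mTR KO, a difference of −0.12 (SE 0.12), lower in 3 of 3 litters. In mTERT KO against mTERT WT the same gene differed by 0.081, with litters at 0.38, −0.23 and 0.088.

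The other differences named by the same rule in the mTR line did not pass. Cyp2c39 differed by −0.15 (SE 0.232), Cyp2d10 by −0.083 (SE 0.0998) and Cyp2d11 by −0.11 (SE 0.135). Cyp2j5 differed by −0.066 (SE 0.151) and Cyp2j9 by −0.018 (SE 0.152). Cyp4f16 differed by 0.088 (SE 0.133) and Cyp4f14 by 0.077 (SE 0.147). Cyp2c38, the most variable gene, differed by 0.096 (SE 0.476), and its 3 litters gave −0.35, 0.82 and −0.18. mTERT KO 2 and mTR KO 2 had the highest Cyp2c38 values of their groups.

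Averaged over both lines, 0 of 34 genes passed (0% of all probes), and 0 had an unadjusted p under 0.05 against 0.708% of all probes. None had KO arrays wholly above or below the WT arrays of both lines together, against 0.0248% of all probes, and with the litter block 0 had an unadjusted p under 0.05, against 3.16%. The largest averages were 0.35 for Cyp2c38 (SE 0.337), −0.11 for Cyp2d40 (SE 0.154) and −0.093 for Cyp4f16 (SE 0.0942). Cyp2c66 differed by −0.063 (SE 0.115), Cyp2d34 by −0.062 (SE 0.0766), Cyp2j6 by −0.073 (SE 0.142), Cyp2j5 by −0.043 (SE 0.106) and Cyp4f14 by 0.068 (SE 0.104). The test of a difference between the 2 knock-out effects also called 0 of 34 (0% of all probes), with 0 at an unadjusted p under 0.05 against 1.45%. Taken as mTR minus mTERT, that difference was −0.44 for Cyp2c39 (SE 0.328), −0.20 for Cyp2c37 (SE 0.169), 0.31 for Cyp2d40 (SE 0.308) and −0.12 for Cyp2d10 (SE 0.141). It was 0.19 for Cyp2j6 (SE 0.284), −0.046 for Cyp2j5 (SE 0.213), 0.36 for Cyp4f16 (SE 0.188) and −0.16 for Cyp4f15 (SE 0.206). With the litter block, Cyp2c39 and Cyp2d40 had an unadjusted p under 0.05 in this test, against 6.26% of all probes, and the count called stayed at 0.

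The 2 colonies were then compared within a genotype. Between mTR WT and mTERT WT, 0 of 34 genes passed (0% of all probes). Cyp2c65, which is below background in every group, was the only one with an unadjusted p under 0.05, against 2.6% of all probes. With the title number added to the fit there was also 1 such gene, against 6.86%. Each litter lies within 1 colony, so a litter block was not used between colonies. Cyp2c38 was the only member whose groups did not overlap, against 5.95% of all probes, with 6.88, 7.59 and 7.95 in mTERT WT and 8.06, 7.96 and 8.30 in mTR WT, a difference of 0.64 (SE 0.476). Cyp2c37 differed by 0.18 (SE 0.12) and Cyp2c70 by −0.19 (SE 0.139). Cyp2d9 differed by −0.11 (SE 0.139), Cyp2d40 by −0.17 (SE 0.218), Cyp2j9 by −0.13 (SE 0.152) and Cyp2j6 by −0.15 (SE 0.201). Cyp4f16 differed by −0.23 (SE 0.133) and Cyp4f40 by −0.092 (SE 0.0957).

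Between mTR KO and mTERT KO, 0 of 34 genes passed (0% of all probes) and 0 had an unadjusted p under 0.05, against 1.9% of all probes. With the title number added to the fit that count was also 0, against 5.65%, and no member had groups that did not overlap, against 5.9%. The differences were −0.14 for Cyp2c70 (SE 0.139), −0.19 for Cyp2c39 (SE 0.232), −0.14 for Cyp2d10 (SE 0.0998) and −0.12 for Cyp2d11 (SE 0.135). They were −0.15 for Cyp2j9 (SE 0.152), 0.040 for Cyp2j6 (SE 0.201), 0.13 for Cyp4f16 (SE 0.133) and −0.10 for Cyp4f15 (SE 0.146). These comparisons share arrays with the knock-out comparisons and are not independent of them.

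The arrays differed far more by title number than by group. Arrays numbered 1 were set against those numbered 2 and 3 in a fit with the 4 groups and the title number. Of the 34 genes, 14 passed an adjusted p of 0.05, which is 41.2%, while 38.8% of all tested probes passed, so the share of members called was near the background. At an unadjusted p under 0.05 the count was 17 of 34, against 48.1% of all probes. The direction differed by subfamily: 8 of 13 Cyp2c genes and 2 of 4 Cyp2j genes fell in number 1, and 3 of 10 Cyp2d genes and 1 of 7 Cyp4f genes rose. Of all probes, 17.5% were called higher and 21.3% lower. All 14 differences had the same sign in 4 of 4 groups, which calling them over these same groups makes likely. For 12 of 34 genes the 4 arrays numbered 1 did not overlap the other 8, against 23% of all probes. The median difference was −0.42 over the Cyp2c genes, 0.10 over Cyp2d, −0.22 over the 4 tested Cyp2j genes and −0.065 over Cyp4f, with −0.023 over all tested probes.

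**Figure D3:**
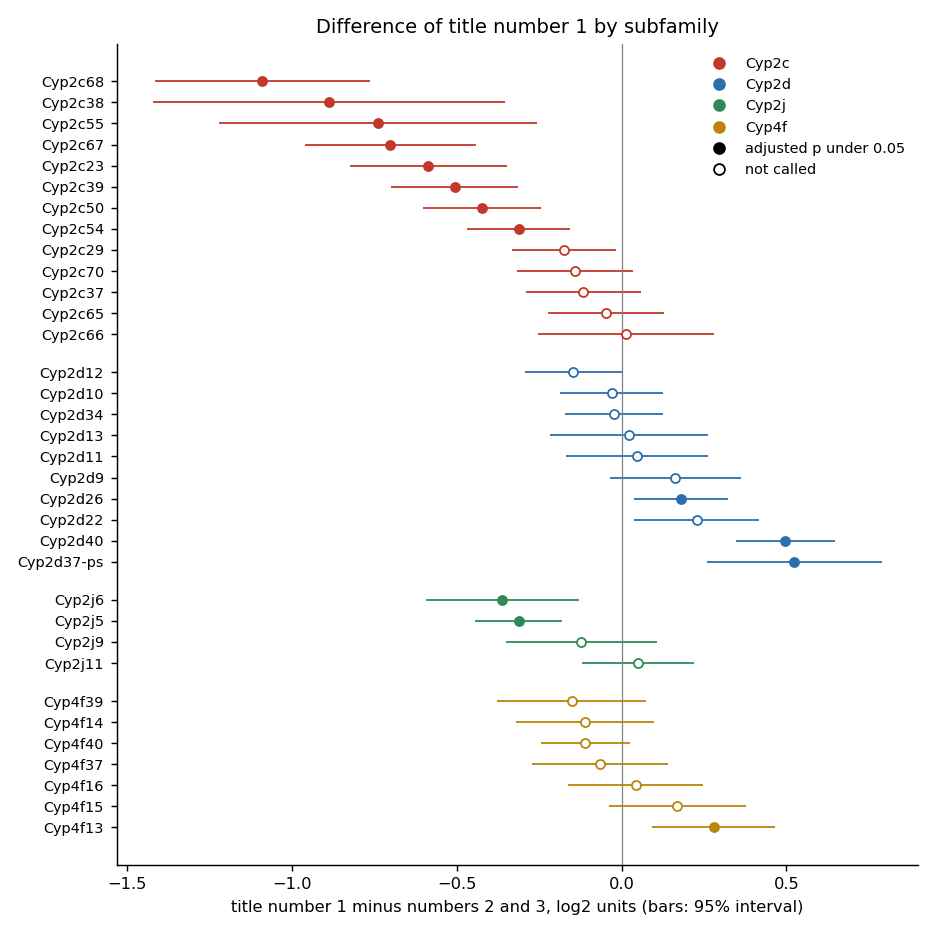
Difference of the arrays of title number 1 from those numbered 2 and 3 in log2 units (x axis) for the 34 tested genes (y axis), coloured by subfamily, with 95% intervals from limma. Filled circles passed an adjusted p of 0.05: 8 Cyp2c genes and 2 Cyp2j genes lie left of 0, and 3 Cyp2d genes and 1 Cyp4f gene lie right of it.

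The promoters of 6 genes are shown, chosen after their values were seen. Cyp2c68 and Cyp2c67 are neighbours that fell together. Cyp2c50 (called lower) and Cyp2c37 (not called) have the Cyp2c promoters of highest identity as the windows were aligned. Cyp2d40 is a Cyp2d gene that rose, and Cyp2j5 is a Cyp2j gene that fell. The other genes called include Cyp2c38, Cyp2c55 and Cyp2c39, which fell by more than Cyp2c50 and are not shown. The RefSeq table of GRCm38.p6 gives 250 bases before to 50 after the start site and holds 30 of the 38 genes. The coordinates in GRCm38.p6 are chr19:39741052-39741351 (minus strand) for Cyp2c68, chr19:39648993-39649292 (minus) for Cyp2c67, chr19:40089429-40089728 (plus) for Cyp2c50, chr19:39992174-39992473 (plus) for Cyp2c37, chr15:82764073-82764372 (minus) for Cyp2d40 and chr4:96664070-96664369 (minus) for Cyp2j5. They are printed 5′ to 3′ along the gene, and capitals mark TATAAA, a core promoter element that reads TTTATA on the other strand, and CAAAGTCCA, a site of the kind bound by HNF4A.
Cyp2c68: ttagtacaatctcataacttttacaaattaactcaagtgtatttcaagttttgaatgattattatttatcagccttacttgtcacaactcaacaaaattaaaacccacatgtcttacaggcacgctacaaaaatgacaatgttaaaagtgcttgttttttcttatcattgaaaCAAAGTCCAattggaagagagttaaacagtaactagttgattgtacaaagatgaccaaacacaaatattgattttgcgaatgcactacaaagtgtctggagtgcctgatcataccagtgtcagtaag
Cyp2c67: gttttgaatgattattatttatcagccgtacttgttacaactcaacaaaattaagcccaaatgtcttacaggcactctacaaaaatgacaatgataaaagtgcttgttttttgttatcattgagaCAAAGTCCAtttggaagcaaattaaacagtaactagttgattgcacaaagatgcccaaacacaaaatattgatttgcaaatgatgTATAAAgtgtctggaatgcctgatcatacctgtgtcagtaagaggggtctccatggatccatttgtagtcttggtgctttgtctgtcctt
Cyp2c50: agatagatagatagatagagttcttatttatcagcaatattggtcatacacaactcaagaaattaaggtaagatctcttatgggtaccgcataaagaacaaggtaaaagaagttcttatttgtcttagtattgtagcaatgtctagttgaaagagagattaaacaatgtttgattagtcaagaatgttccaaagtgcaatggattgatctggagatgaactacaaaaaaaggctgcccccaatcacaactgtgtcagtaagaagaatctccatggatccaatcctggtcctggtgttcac
Cyp2c37: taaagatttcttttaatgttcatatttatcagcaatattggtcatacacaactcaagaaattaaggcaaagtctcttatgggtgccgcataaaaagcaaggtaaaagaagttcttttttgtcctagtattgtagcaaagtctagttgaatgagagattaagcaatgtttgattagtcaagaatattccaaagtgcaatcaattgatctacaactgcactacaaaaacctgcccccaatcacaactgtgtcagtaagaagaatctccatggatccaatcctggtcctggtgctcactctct
Cyp2d40: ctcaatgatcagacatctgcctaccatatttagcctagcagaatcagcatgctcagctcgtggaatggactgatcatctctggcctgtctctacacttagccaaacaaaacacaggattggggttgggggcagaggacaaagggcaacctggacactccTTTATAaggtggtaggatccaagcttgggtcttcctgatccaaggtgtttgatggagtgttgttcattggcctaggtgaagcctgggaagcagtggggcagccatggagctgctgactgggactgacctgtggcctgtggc
Cyp2j5: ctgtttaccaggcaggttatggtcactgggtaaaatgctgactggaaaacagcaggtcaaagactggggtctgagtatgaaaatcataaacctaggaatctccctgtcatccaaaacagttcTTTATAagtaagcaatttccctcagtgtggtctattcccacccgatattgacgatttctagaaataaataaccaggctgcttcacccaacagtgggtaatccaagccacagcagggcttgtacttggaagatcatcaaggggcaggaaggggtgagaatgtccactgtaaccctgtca

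CAAAGTCCA was searched on both strands and was found in 4 of 11 Cyp2c promoters (Cyp2c70, Cyp2c67, Cyp2c68 and Cyp2c65), in none of the 5 Cyp2d, 6 Cyp2j and 8 Cyp4f promoters, and in 0.477% of all 27025 promoters of this length. It begins 77 bases before the start site in Cyp2c68 and 125 bases before it in Cyp2c67. Both of these genes fell with title number 1, while Cyp2c70 did not pass and Cyp2c65 was below background. Cyp2c38, Cyp2c55, Cyp2c39 and Cyp2c50 were also called lower, and their promoters hold no CAAAGTCCA. Cyp2c23 and Cyp2c54, called lower too, were not among the promoters searched. TATAAA, counted at any position in the window, was found in 7 of 11 Cyp2c, 5 of 5 Cyp2d, 1 of 6 Cyp2j and 0 of 8 Cyp4f promoters and in 14.16% of all. It begins 40 bases before the start site in Cyp2c67, 91 in Cyp2d40 and 128 in Cyp2j5, and its use there was not tested. Of the other motifs searched, TTATGTAA (a D-box) and TTGCGCAA (a CEBP site) were in 0 of the 30 promoters and in 0.955% and 0.185% of all. TTCNNNGAA (a STAT site) was in 2 Cyp2j promoters, 1 Cyp4f promoter and 8.47% of all, and AGGTCA (a nuclear receptor element) in 3 Cyp2c, 1 Cyp2d and 1 Cyp2j promoters and 16.04% of all. No hit of one motif overlapped a hit of another in the member promoters. A match is a description of the letters and no evidence of binding.

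Promoter windows were aligned end to end and gaps counted as columns, so start sites annotated at different places lower the identity. By this count the Cyp2c50 and Cyp2c37 windows were identical at 86.56% of columns, the highest of the 55 Cyp2c pairs, whose median was 51.37%. The Cyp2c67 and Cyp2c68 windows were identical at 65.9%, but are shifted against each other. CAAAGTCCA begins 125 bases before the start site in Cyp2c67 and 77 before it in Cyp2c68. With title number 1, Cyp2c50 fell by 0.42 (interval −0.60 to −0.24) and Cyp2c37 differed by −0.12 (interval −0.29 to 0.059), and the difference between these genes was not tested. Cyp2d9 and Cyp2d11, at 84.49%, were the closest Cyp2d pair by this count, and neither was called, at 0.16 and 0.046.

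The difference was largest in Cyp2c68. It read 8.59, 9.90 and 10.12 in mTERT WT, 8.66, 10.25 and 10.39 in mTERT KO, 9.23, 9.88 and 9.93 in mTR WT, and 9.25, 9.82 and 9.89 in mTR KO. In every group the array numbered 1 was the lowest by at least 0.57 log2 units, and the mean fell from 10.02 to 8.93, by 1.09 (SE 0.148, adjusted p 0.000253 with limma), or 2.13-fold. Its neighbour on chromosome 19, Cyp2c67, read 10.39, 11.73 and 11.21 in mTERT WT, 10.80, 11.54 and 11.69 in mTERT KO, 10.96, 11.39 and 11.51 in mTR WT, and 10.97, 11.45 and 11.33 in mTR KO. Cyp2c67 fell by 0.70 (SE 0.118, adjusted p 0.000954 with limma), and again the 4 arrays numbered 1 were below the other 8. The promoters of both genes, printed above, hold CAAAGTCCA, which those of Cyp2c38, Cyp2c55, Cyp2c39 and Cyp2c50, also called lower, do not. Those of Cyp2c23 and Cyp2c54, called lower too, were not searched. Cyp2c67 and Cyp2c68 are closely related, and signal crossing between their probes cannot be told apart from a change of both.

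Cyp2c23, an arachidonic acid epoxygenase, read 10.58, 11.51 and 11.68 in mTERT WT, 10.93, 11.59 and 11.66 in mTERT KO, 11.17, 11.30 and 11.52 in mTR WT, and 10.996, 11.44 and 11.35 in mTR KO. It fell by 0.59 (SE 0.108, adjusted p 0.00169 with limma). Cyp2c39 read 5.53, 6.001 and 6.10 in mTERT WT, 5.72, 6.24 and 6.51 in mTERT KO, 5.90, 6.18 and 6.29 in mTR WT, and 5.63, 6.32 and 5.96 in mTR KO, and fell by 0.51 (SE 0.0873, adjusted p 0.00112). The linoleic acid epoxygenases Cyp2c50 and Cyp2c54 fell by 0.42 (SE 0.0812) and 0.31 (SE 0.0708), to means of 11.09 and 10.16. For all 4 of these genes the arrays numbered 1 lay below the other 8.

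Cyp2c38 and Cyp2c55, a gene induced through CAR and PXR, also fell, by 0.89 (SE 0.242, adjusted p 0.0143 with limma) and 0.74 (SE 0.219, adjusted p 0.0211), but their arrays overlapped. Cyp2c55 read 5.58, 5.88 and 7.13 in mTERT WT, 5.39, 6.89 and 7.16 in mTERT KO, 6.19, 6.22 and 6.36 in mTR WT, and 6.01, 6.13 and 6.51 in mTR KO. mTERT KO 1 was the lowest of all 12 arrays for both genes. Without that array the differences were −0.56 (adjusted p 0.0668) for Cyp2c38 and −0.44 (adjusted p 0.101) for Cyp2c55. For Cyp2c55 the call was also lost without mTERT WT 1, at −0.68 (adjusted p 0.0761). The count of members called was 9 without mTERT KO 1, and between 12 and 15 without any other single array. Without mTERT KO 1 the share of all probes called fell as well, to 29.3%, and without any other array it was between 30.3% and 37.5%. The remaining 5 Cyp2c genes did not pass: Cyp2c29 at −0.17 (interval −0.33 to −0.016), Cyp2c70 at −0.14, Cyp2c37 at −0.12, Cyp2c65 at −0.047 and Cyp2c66 at 0.013.

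On chromosome 19 the 13 Cyp2c genes lie in the order Cyp2c55, Cyp2c65, Cyp2c66, Cyp2c29, Cyp2c39, Cyp2c38, Cyp2c67, Cyp2c68, Cyp2c37, Cyp2c54, Cyp2c50, Cyp2c70 and Cyp2c23. The genes called lower are not a single block in this order. Cyp2c39, Cyp2c38, Cyp2c67 and Cyp2c68 stand side by side, Cyp2c37 after them was not called, and Cyp2c54 and Cyp2c50 follow it. Cyp2c55 and Cyp2c23, also called lower, stand at opposite ends of the order.

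The 3 Cyp2d genes that passed went the other way. Cyp2d40 read 8.98, 8.48 and 8.36 in mTERT WT, 8.64, 8.26 and 8.10 in mTERT KO, 8.83, 8.30 and 8.17 in mTR WT, and 8.72, 8.28 and 8.44 in mTR KO, and rose by 0.50 (SE 0.0683, adjusted p 0.00027 with limma). The pseudogene Cyp2d37-ps read 9.61, 9.57 and 9.45 in mTERT WT, 9.97, 9.26 and 9.09 in mTERT KO, 9.998, 8.99 and 9.43 in mTR WT, and 9.82, 9.34 and 9.48 in mTR KO, and rose by 0.52 (SE 0.121, adjusted p 0.00592). In both genes each array numbered 1 was above all 8 others. Cyp2d26 rose by 0.18 (SE 0.0647, adjusted p 0.0467), to 11.93 from 11.75, a call that was lost in 10 of 12 cases when a single array was left out (0.13 to 0.22, adjusted p up to 0.195), that is without any array except mTERT WT 1 or mTERT WT 2. Cyp2d22 was 0.23 higher and did not pass (interval 0.038 to 0.42, adjusted p 0.0564), and neither did Cyp2d9 at 0.16. Cyp2d40 and Cyp2d37-ps stand side by side on chromosome 15, and the signal of a pseudogene probe may include signal from its close relatives.

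Cyp2j5 fell by 0.31 (SE 0.0597, adjusted p 0.00206 with limma), to a mean of 11.48 from 11.79, with no overlap. Title number took up 88.2% of its sum of squares over the 12 arrays. That is the highest share among the members, followed by 83.1% for Cyp2c68, against a median of 40.3% over all tested probes. Cyp2j6 fell by 0.36 (SE 0.105, adjusted p 0.0195), also with no overlap, and lost its call without mTERT KO 1 (adjusted p 0.0567), mTERT WT 1 (0.0707) or mTR WT 1 (0.0512). Cyp4f13 rose by 0.28 (SE 0.0846, adjusted p 0.0234) and lost its call without mTERT KO 1 (0.27, adjusted p 0.0717) or mTR WT 1 (0.20, adjusted p 0.115). Cyp4f15 and Cyp4f14 did not pass, at 0.17 (interval −0.039 to 0.38) and −0.11 (interval −0.32 to 0.098).

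**Figure D4:**
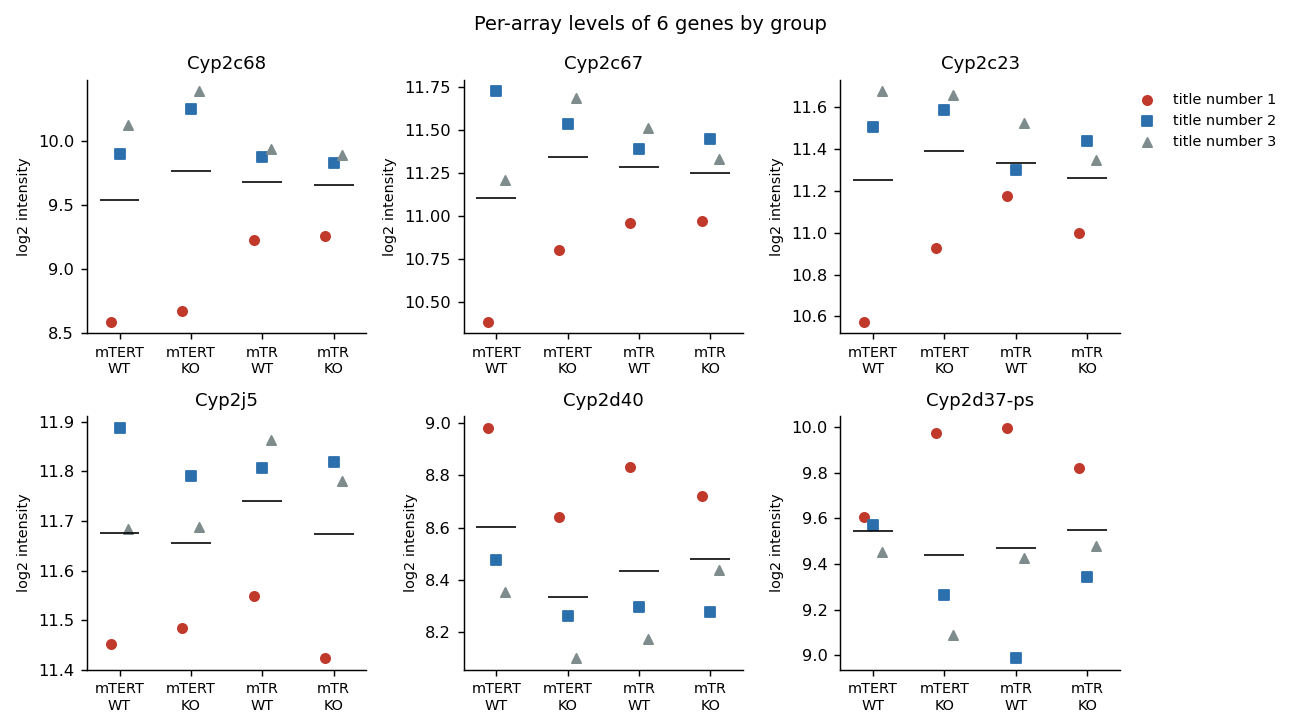
Log2 intensity (y axis) of 6 genes on each array, by group (x axis), coloured and shaped by title number, with a horizontal line at each group mean. The array of title number 1 is the lowest in each group for Cyp2c68, Cyp2c67, Cyp2c23 and Cyp2j5 and the highest for Cyp2d40 and Cyp2d37-ps.

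Other measures moved with title number 1, and their part in these differences was not tested. The mean of 51 small nucleolar RNA genes was 6.44 to 6.67 on the 4 arrays numbered 1 and 5.18 to 5.34 on the other 8. Of the 49 tested, 45 were called higher, against 17.5% of all tested probes. All 11 pancreas acinar genes had a higher mean in number 1, 3 of them past the threshold (Reg1, Cela1 and Cela2a, at 2.87, 3.00 and 3.36). mTR WT 1 had pancreas genes at 3.89, as low as the arrays without them, and in that group Cyp2c68 read 9.23 against 9.88 and 9.93. In the same group Cyp2c38 read 8.06 against 7.96 and 8.30, and Cyp2c55 read 6.19 against 6.22 and 6.36. Without the 5 arrays with pancreas transcripts mTR WT 1 is the only array numbered 1 left, and 0 of 34 genes passed, and 589 probes were called in all (2.92%). Cyp2c68 then differed by −0.65 (adjusted p 0.103), Cyp2c67 by −0.55, Cyp2d40 by 0.66 and Cyp2c55 by −0.011. Without the 2 arrays with muscle transcripts, 13 of the 14 genes kept their calls, all but Cyp2d26 (adjusted p 0.0655), and Cyp2d22 gained one (0.33, adjusted p 0.0199). Of 10 Kupffer cell genes 2 rose, Clec4f by 0.68 and C1qb by 0.35, near the 17.5% of all tested probes called higher.

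Both lines gave the same direction for all 14 genes, but these were called on both lines together, which largely sets that outcome. Cyp2c68 differed by −1.54 among mTERT mice and by −0.64 among mTR mice, Cyp2c55 by −1.28 and −0.20, Cyp2c38 by −1.38 and −0.40, Cyp2c67 by −0.95 and −0.46, and Cyp2c23 by −0.85 and −0.32. A test of the difference between lines, chosen after seeing these values, called 0 of 34 genes, against 0.0347% of all probes. The nearest was Cyp2c68, with a difference of 0.90 (SE 0.13, adjusted p 0.0576 with limma). At an unadjusted p under 0.05 it gave 6 of 34 genes, against 7.21% of all probes: these 5 genes and Cyp2j9, which differed by −0.34 and 0.094. Cyp2d40 was nearly the same in both lines, at 0.51 and 0.48 (interval of the difference −0.35 to 0.28). Tested within a line, 7 of 34 genes passed in the mTR line alone, where 23.2% of all probes did, and 10 of 34 in the mTERT line alone, where 18.6% did. The 7 were Cyp2c68, Cyp2c67, Cyp2c39, Cyp2c50, Cyp2d40, Cyp2d37-ps and Cyp2j5.

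**Figure D5:**
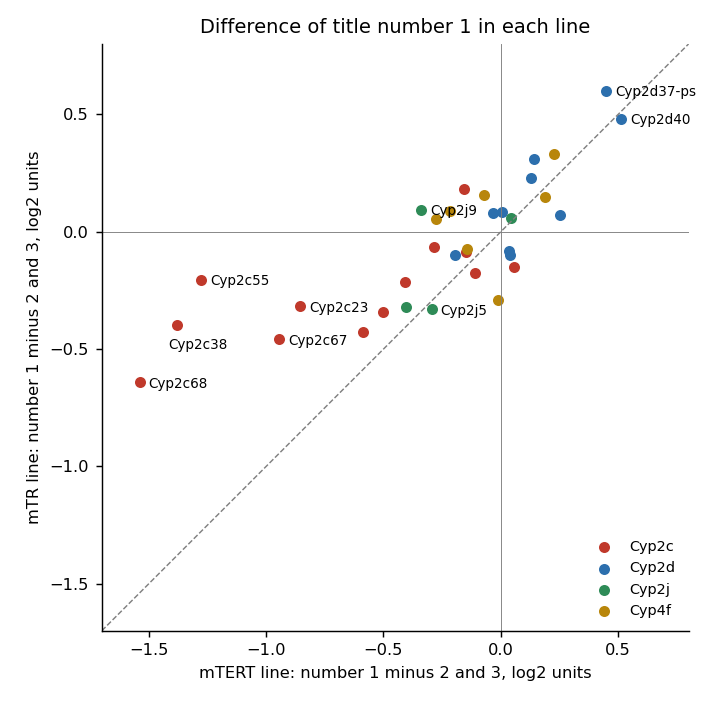
Difference of title number 1 from numbers 2 and 3 in log2 units, for mTERT mice (x axis) against mTR mice (y axis), with 1 point per tested gene, coloured by subfamily, and a dashed line of equality. Cyp2c68, Cyp2c38 and Cyp2c55 lie farthest left, at −1.28 to −1.54 on the x axis, and between −0.64 and −0.20 on the y axis.

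Animals of a litter share their parents and rearing, so the 4 arrays of a title number are not 4 independent samples, and the standard errors of these differences may be too small. With the litter as a random block the same 14 genes passed. The correlation within litters estimated for that fit was 0.0043, so it barely differs from the main fit and cannot check these standard errors. Nothing in the labels says what the number stands for beyond the set, and an array batch and a litter effect cannot be told apart.

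Title numbers 2 and 3 differed little. None of the 34 genes passed (0% of all probes), and 0 had an unadjusted p under 0.05, against 6.96% of all probes. None had arrays that did not overlap, against 3.32%. Number 2 minus number 3 was −0.19 for Cyp2c70 (SE 0.0928), −0.51 for Cyp2c55 (SE 0.253), 0.16 for Cyp2d34 (SE 0.0778) and 0.064 for Cyp2d10 (SE 0.0816). It was 0.072 for Cyp2j5 (SE 0.0689), 0.11 for Cyp2j9 (SE 0.12), −0.17 for Cyp4f14 (SE 0.11) and −0.13 for Cyp4f16 (SE 0.107).

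The other genes of the pathway were read from 4 lists, and in every comparison other than title number 1 none of their members passed. With title number 1, 17.5% of all tested probes were called higher and 21.3% lower, the background for the counts of these lists. Of 6 electron donors and partners, Cyb5a, the cytochrome b5 of the endoplasmic reticulum, rose by 0.31 (SE 0.0566) in number 1, while Cyb5b, its mitochondrial relative, fell by 0.39 (SE 0.0736) and Cyb5r1 by 0.21 (SE 0.0643). The median of that list was −0.057. In mTERT KO the smallest p of the list belonged to Cyb5r3 at 0.15 (SE 0.105) and Pgrmc1 at −0.074 (SE 0.0992), and in mTR KO to Cyb5r1 at −0.12 (SE 0.126) and Pgrmc2 at −0.14 (SE 0.165).

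Among 8 tested enzymes that supply or use eicosanoids and epoxides, 1 was called in number 1, against 38.8% of all tested probes. Pla2g4a, the phospholipase that frees arachidonic acid, fell by 0.52 (SE 0.119). The epoxide hydrolases Ephx1 and Ephx2 did not pass, at 0.22 (SE 0.0884) and −0.063 (SE 0.0721). The list's median was 0.087. The smallest p values in mTERT KO were those of Alox12 at −0.28 (SE 0.134) and Ptgs2 at −0.11 (SE 0.105), both of which read under 4.2, and in mTR KO those of Ltc4s at −0.11 (SE 0.0929) and Ptgs2 at −0.094 (SE 0.105).

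Regulators of liver P450 genes were called higher more often than lower with number 1. Of 24, 9 rose and 3 fell, against 17.5% and 21.3% of all tested probes, with a median of 0.16. Nr1i2, the gene of PXR, rose by 0.68 (SE 0.0717), Cebpb by 1.35 (SE 0.163) and Hnf4a by 0.58 (SE 0.0725). Nr1i3, the gene of CAR, rose by 0.66 (SE 0.155), and Nr3c1, the glucocorticoid receptor, fell by 0.45 (SE 0.0595). The other genes called lower were Dbp and Cux2. Stat5b and Bcl6, which act in the sex-dependent growth hormone response, did not pass, at −0.14 (SE 0.0918) and 0.62 (SE 0.497). In mTERT KO the smallest p values were those of Foxa2 at 0.29 (SE 0.119) and Foxa1 at 0.31 (SE 0.136), and in mTR KO those of Foxa2 at −0.17 (SE 0.119) and Ahr at 0.26 (SE 0.18).

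Of 11 haem genes 5 rose with number 1 and none fell, against 17.5% and 21.3% of all tested probes, with a median of 0.14. Alas1, the rate-limiting enzyme of haem synthesis, rose by 0.84 (SE 0.17), Hmox1, which breaks haem down, by 0.56 (SE 0.102) and Urod by 0.32 (SE 0.0714). In mTERT KO Fech differed by 0.18 (SE 0.103) and Alas1 by 0.46 (SE 0.495), and in mTR KO Hmox2 differed by −0.14 (SE 0.111) and Alas1 by −0.40 (SE 0.495).

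Of the 35 tested Cyp genes of other subfamilies, 15 fell and 4 rose in number 1, with a median of −0.19. Over all tested probes, 21.3% were called lower and 17.5% higher, the background also for the marker counts that follow. Cyp51, of cholesterol synthesis, fell by 0.82 (SE 0.069), Cyp7a1, the rate-limiting enzyme of bile acid synthesis, fell by 0.98 (SE 0.13), and Cyp2b10, a gene induced through CAR, rose by 2.64 (SE 0.306). Of the markers of liver zones, 5 of 8 pericentral genes fell (Cyp1a2, Rhbg, Lgr5, Axin2 and Cyp2e1, by 0.19 to 0.48). The other 3, Glul, Oat and Slc1a2, were higher in number 1 and did not pass. Of 5 periportal genes Arg1 and Pck1 rose and Hsd17b13 fell. Of 9 hepatocyte genes Ttr and Apoh rose and Ahsg fell, by 0.17 or less. None of the 11 muscle, 2 small intestine, 3 neutrophil and 3 kidney genes tested passed.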

How the data were processed

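Liver RNA of 12 mice was measured on 12 one-colour arrays. The values analysed are log2 intensities as deposited by the authors; GCOS 1.4, Affymetrix Expression Console and PLIER are named in the submitters' processing notes, with no role given, and the log base was inferred from the values. They range from 2.62 to 13.83 with array medians of 4.37 to 4.43, and how arrays were scaled to each other is not given in the sources used here. Of 28853 probes, 21789 carried 1 gene symbol, 1621 several and 5443 none, and 21698 matched a current gene by Entrez identifier. No read depth exists, and the number of arrays limits the precision.

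The 20197 probes with a mean above the 30th percentile were fitted with limma 3.58.1 in R 4.3.3 (lmFit, eBayes, two-sided, Benjamini-Hochberg over all of them). Groups were compared in a fit of 4 group means, and title numbers in an additive fit of group and title number. Replicates are separate animals. The numbers, read as litters from the labels, were taken to pair the samples. Same-numbered WT and KO arrays deviated together (correlations 0.692, 0.135 and 0.623 in the mTERT line, and 0.458, 0.151 and 0.552 in the mTR line). A difference by title number that both lines share gives such correlations without littermates, so they cannot check the pairing. The KO array numbered 2 correlated more with WT 3 (0.416 and 0.464) than with WT 2, so the data separate number 1 from the rest more than 2 from 3. The fit was also run on simulated data whose noise was independent from array to array. That setting cannot check an effect of litters or of other tissues in a sample.

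Named genes: per-array values for the 3 genes of highest mean in each subfamily, and in each comparison all genes past the threshold, or else the 2 of smallest p above background in each subfamily. For the pathway and marker lists the rule takes up to 3 genes past the threshold or else 2, and the text gives them only for title number 1 and, for pathway lists, the knock-out comparisons. Other genes were named after their values were seen. Members and lists were chosen with earlier results of these data known. Motifs were counted in RefSeq promoters of GRCm38.p6. Alternatives were quantile normalization, median centring, other filters, a trended prior, array weights, gene means, the litter or the title number as a block, arrays left out and each line alone.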

Additional observations from a re-analysis of the deposited data

Results flagged for a closer look

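Among the 14 genes that differed with title number 1, the 4 arrays of a title number (1 per group) were searched for a lone value. Of 42 such sets 6 held one by Dixon's 95% value (0.829), where chance flags about 1 in 20, and groups of 3 were not tested. Low values were 9.09 for Cyp2d37-ps in mTERT KO 3 (others 9.43 to 9.48), 11.67 for Cyp2d26 in mTR KO 3 (others 11.77 to 11.78), 8.20 for Cyp4f13 in mTR WT 2 (others 8.54 to 8.56) and 11.32 for Cyp2c50 in mTERT KO 2 (others 11.56 to 11.57). High values were 8.48 for Cyp2d40 in mTERT WT 2 (others 8.26 to 8.30) and 10.66 for Cyp2c54 in mTERT KO 3 (others 10.37 to 10.42). None was an array of title number 1. mTERT WT 2 and mTR WT 2 also held pancreas transcripts, whose part in these values was not tested.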

How the results depend on the processing

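None of the 34 genes passed in any comparison of groups, or of numbers 2 and 3, under any alternative run or with any array left out. The replicate block kept the counts of the group comparisons at 0, as the report gives with its counts at an unadjusted p. It was the litter in the knock-out comparisons and the title number between colonies. Of 1974 values recomputed, 1855 were unchanged: differences kept direction and side of the threshold, counts stayed within 1.5 times and levels within the spread of a group. Most were differences that passed no test to begin with. Of 336 values of the 14 genes called for title number 1, 289 kept their call and 47 lost it. Among the rest, 18 counts of calls fell by over 1.5 times and 54 values changed sign. The arrays with muscle transcripts were left out, and the lines compared for title number 1, only after seeing the data. The cause was not tested except where fewer samples show it.

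For title number 1 the count of 14 was 0 without the 5 arrays with pancreas transcripts, where number 1 rests on 1 array, and 7 in the mTR line alone, where 2.92% and 23.2% of all probes were called, against 38.8%. The Cyp2c count of 8 was 0 and 4 there, and the Cyp2d count of 3 was 0 without those arrays and 1 in the mTERT line alone. Leaving out 1 array gave 9 (without mTERT KO 1) to 15 (without mTERT WT 2) in all, against 29.3% and 35.8% of all probes. By subfamily it gave 6 to 9 Cyp2c, 2 to 4 Cyp2d, 1 to 2 Cyp2j and 0 to 1 Cyp4f genes, and the last was 0 without mTERT KO 1 or mTR WT 1. A trended robust prior ended the calls of Cyp2c55 (adjusted p 0.0685) and Cyp2c38 (0.0656), and median centring that of Cyp2d26 (0.0846).

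Sign changes were all in differences that passed no test. Without the pancreas arrays they were, in mTERT KO, Cyp2j6 0.014 and Cyp2j5 0.056, and in mTR KO, Cyp2c39 0.048, Cyp2j5 0.093 and Cyp4f16 −0.027. They were, in the average, Cyp2d34 0.048, Cyp2j6 0.035, Cyp2j5 0.074 and Cyp4f14 −0.079, in the difference of effects, Cyp2j5 0.037, between WT groups, Cyp2d9 0.17 and Cyp2d40 0.15, and between KO groups, Cyp4f15 0.011. Without the muscle arrays they were Cyp4f15 −0.021 in mTERT KO, Cyp2c37 0.064 and Cyp2j5 0.17 in the difference of effects, and Cyp2c37 −0.093 between WT groups. Without title number 1 they were Cyp4f15 −0.082 in mTERT KO, Cyp2j9 0.079 in mTR KO, Cyp2j5 0.010 and Cyp4f15 0.042 in the difference, and Cyp4f15 0.011 between KO groups. Cyp2j9 in mTR KO was 0.016 with quantile normalization and 0.017 with array weights, and in the mTR line alone number 2 minus 3 was −0.020 for Cyp2d10 and −0.0088 for Cyp2j5.

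Leaving out 1 array changed a sign in these ranges. In mTERT KO they were −0.31 to 0.012 for Cyp2j6, −0.13 to 0.086 for Cyp2j5 and −0.058 to 0.24 for Cyp4f15. In mTR KO they were −0.33 to 0.020 for Cyp2c39, −0.26 to 0.022 for Cyp2d11, −0.16 to 0.059 for Cyp2j5, −0.10 to 0.062 for Cyp2j9 and −0.0083 to 0.13 for Cyp4f14. In the average they were −0.13 to 0.012 for Cyp2c66, −0.15 to 0.016 for Cyp2j6 and −0.099 to 0.020 for Cyp2j5, and in the difference −0.15 to 0.079 for Cyp2j5. Between WT groups they were −0.37 to 0.019 for Cyp2d40 and −0.33 to 0.031 for Cyp2j6. Between KO groups they were −0.27 to 0.013 for Cyp2d11, −0.081 to 0.17 for Cyp2j6 and −0.26 to 0.045 for Cyp4f15. For number 2 minus 3 they were −0.0035 to 0.12 for Cyp2d10 and −0.20 to 0.00069 for Cyp4f16.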

Other observations

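The probe that carries the names Cyp2c67, Cyp2c68, Cyp2c69 and Cyp2c40 together had a mean of 11.39. On the 4 arrays numbered 1 it read 10.24 in mTERT WT, 10.44 in mTERT KO, 10.94 in mTR WT and 10.95 in mTR KO, below all 8 other arrays. It fell by 1.13 with title number 1 (SE 0.165, adjusted p 0.000403 with limma), lower in 4 of 4 groups, and differed by 0.23 in mTERT KO and 0.036 in mTR KO. Which of the 4 genes gives its signal cannot be told apart.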
